A study of Triticum aestivum with 12 samples.

Results

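Leaf and axillary bud of winter wheat were compared before any exposure to cold, from 4 of the 12 RNA-seq libraries of the study: 2 of leaf and 2 of axillary bud, chosen by their labels. The plants, of the winter cultivar AK58 (Triticum aestivum), had grown for 2 weeks with 16 h of light at 22 °C and 8 h of darkness at 19 °C, and both tissues came from such plants without cold. Leaf was collected directly, whereas the buds were dissected under a microscope. The other 8 libraries hold shoot apex of the same kind of plants, and leaf, axillary bud and shoot apex of plants that were afterwards kept at 4 °C for 1 month and sampled 1 day later, which makes these vernalized groups older as well. The sources used here do not state how many plants went into a library or whether the 2 libraries of a group came from separate plants. The p-values rest on the spread between replicates of all 12 libraries, not of leaf and axillary bud alone. This spread may be technical.

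The leaf blade of a grass is a mature organ whose cells have largely stopped dividing and are devoted to photosynthesis. An axillary bud forms in the angle between leaf and stem, holds a meristem with its own young leaf primordia, and in wheat can grow out into a tiller. Bread wheat is a hexaploid with the A, B and D subgenomes, so most genes exist as homoeologues on related chromosomes, and a group of 1 gene from each subgenome is called a triad. The genes are given by their identifiers in the IWGSC RefSeq v1.0 annotation, in which the characters after TraesCS name the chromosome. Only the SPL genes could be named, from the study's own list of their identifiers. No other identifier was paired with a name in the sources used here, so no role is given for those genes, and the labelled tissues could not be checked against their defining markers.

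Expression was measured as TPM, a share of transcripts that is scaled for gene length and sums to 1000000 in each library. TPM keep no record of the reads behind a value, so the depth is unknown and a 0 means only that a gene is listed at 0. Of 107891 genes in the files, 45053 and 46876 were above 1 TPM in leaf replicates 1 and 2, and 44920 and 44523 in axillary bud replicates 1 and 2. The 2 leaf libraries differed from each other more than the 2 bud libraries did. Genes were tested when the mean of any of the 6 groups exceeded 1 TPM, which held for 60326. Over these, the median absolute difference between replicates on the log2(TPM + 1) scale was 0.26 in leaf and 0.16 in axillary bud. In bulk tissue, fewer cells of a type and less RNA per cell cannot be told apart.

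Many genes separated the 2 tissues. At a two-sided p under 0.01 and a fold change above 2 on the log2(TPM + 1) scale, limma called 15490 of the 60326 tested genes higher in leaf (25.7%) and 9649 higher in axillary bud (16%). With Benjamini-Hochberg adjusted p-values under 0.05 from limma and the same fold change, the counts were 15682 (26%) and 9948 (16.5%). Both leaf libraries lay above both bud libraries in 28833 genes (47.8%), and both bud libraries above both leaf libraries in 19796 (32.8%). An exact permutation test of 2 against 2 libraries cannot go below a two-sided p of 0.333. The calls therefore rest on the spread that limma pools over the 12 libraries and shares across genes.

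The balance between the 2 directions depended on the scale. The median difference of all tested genes, leaf minus axillary bud, was 0.17 on the deposited scale and -0.14 after median-of-ratios scaling, which divides each library by its median ratio to a common reference (1.54 and 1.75 for leaf, 1.12 and 1.03 for axillary bud). On the scaled values 9221 genes were called higher in leaf (15.4%) and 13032 higher in axillary bud (21.8%). All 9221 were among the leaf calls on the deposited scale, 9477 of the 9649 bud calls were also made after scaling, and 0 genes changed direction. Genes that differed strongly were about as many in both tissues on the deposited scale: 1464 were more than 10-fold higher in leaf (2.43%) and 1519 more than 10-fold higher in axillary bud (2.52%). Beyond 100-fold, 70 genes were higher in leaf (0.116%) and 153 in axillary bud (0.254%) as deposited. After scaling these were 35 (0.0585%) and 209 (0.349%). Folds of 10 and 100, here and below, are on the log2(TPM + 1) scale, where the added 1 lowers the folds of low genes. By share of the deposited means the order was the reverse, with 1925 genes at 99% or more leaf and 1298 at 1% or less. After scaling these were 1315 and 1529. More than 10-fold differences after scaling were found in 768 leaf genes (1.28%) and 1829 bud genes (3.06%). The scaling factors above come from all 12 libraries. At a fold change above 2, scaling within the 4 libraries alone gave 11610 leaf and 11710 bud calls, a nearly even balance. That setting was added after seeing the data.

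**Figure D1:**
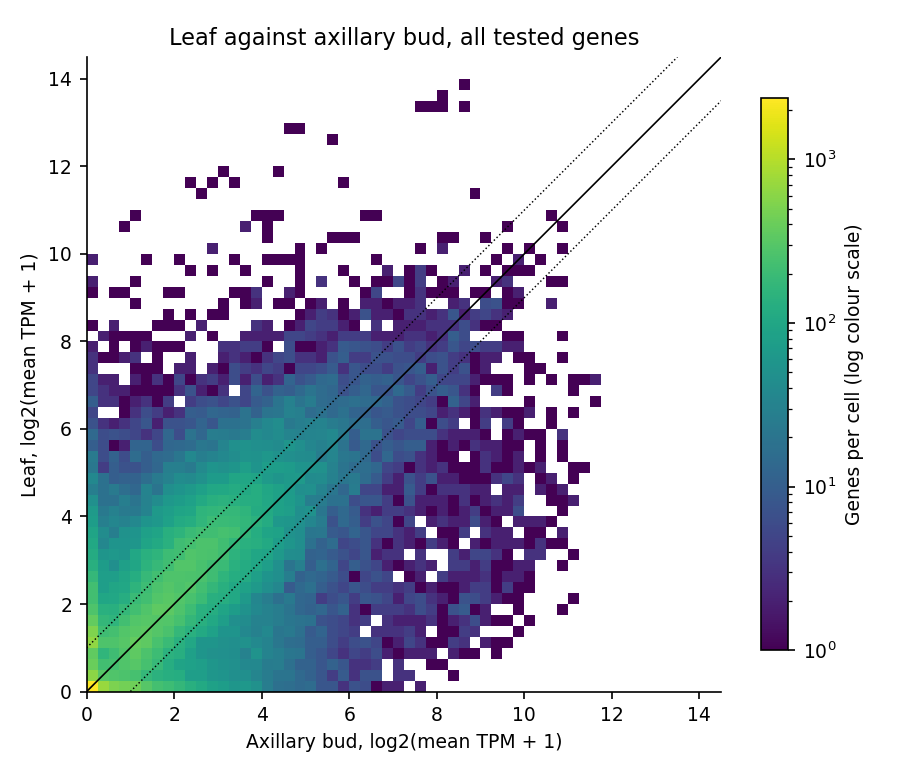
Mean level of the 60326 tested genes in leaf (vertical axis) against axillary bud (horizontal axis), both as log2(mean TPM + 1), with colour for the number of genes per cell on a log scale. The solid line marks equal levels and the dotted lines a fold change of 2 on this scale. Most genes lie near the solid line, genes of only 1 tissue lie along the axes, and the most abundant leaf genes stand at the top, at levels that no gene reached in axillary bud.

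The most abundant transcripts of leaf belonged to a few genes of homoeologous group 5 chromosomes. TraesCS5D02G169900 had 17505 and 10940 TPM in the 2 leaf libraries and 431 and 306 TPM in the 2 bud libraries. TraesCS5A02G165700 had 15723 and 9942 TPM in leaf and 356 and 232 TPM in axillary bud. The other 4 of the leaf's first 6 were TraesCS5D02G169600, TraesCS5B02G162800, TraesCS5B02G162600 and TraesCS5A02G165400, at 7652 to 13684 TPM per leaf library and 166 to 432 TPM per bud library. The 6 genes lie within short stretches of identifiers on 5A, 5B and 5D, where near-identical copies can share reads, so the division of TPM among them is uncertain. Together they took 8.54% and 5.38% of all TPM in leaf but no more than 0.21% in either bud library. Their log2 differences in limma ran from 4.86 in TraesCS5B02G162600 (SE 0.31, adjusted p = 1.02e-07) to 5.53 in TraesCS5A02G165400 (SE 0.31, adjusted p = 4.08e-08). In every one of these 6 genes leaf replicate 1 was above leaf replicate 2.

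In axillary bud no gene reached such levels, and the first 6 were spread over several chromosomes. TraesCS1D02G109800 had 3032 and 3309 TPM in axillary bud and 94.7 and 180 TPM in leaf. TraesCS2D02G178300 (2932 and 3366 TPM), TraesCS7B02G444400 (2896 and 3170 TPM) and TraesCS1B02G387100 (2480 and 2673 TPM) were likewise present in leaf, at 55.7 to 213 TPM. TraesCS3A02G164300 had 2905 and 2831 TPM in axillary bud and 22.8 and 46.5 TPM in leaf. The largest contrast among the 6 was in TraesCS1B02G378400, with 2254 and 2447 TPM in axillary bud and 5.75 and 10.7 TPM in leaf, a log2 difference of -8.04 (SE 0.32, limma adjusted p = 5.88e-09). For the other 5 the log2 differences lay between -6.41 and -4.26, with adjusted p-values from 1.96e-08 to 2.25e-06 in limma. In all 6 genes the value in leaf was higher in leaf replicate 2 than in leaf replicate 1.

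The transcriptome of leaf was steeper at its top and flatter below. The 10 most abundant genes held 11.8% and 7.13% of TPM in the leaf libraries against 2.52% and 2.68% in the bud libraries. The order turned in the next ranks, as genes at ranks 101 to 1000 held 21.2% and 23.0% in leaf and 35.1% and 35.4% in axillary bud. To reach 50% of all TPM took 1483 and 2096 genes in leaf but only 998 and 947 in axillary bud. For the 100 most abundant genes, the shares were 23.9% and 16.6% in leaf and 15.0% and 15.6% in axillary bud, so leaf replicate 2 lay close to the bud libraries there.

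**Figure D2:**
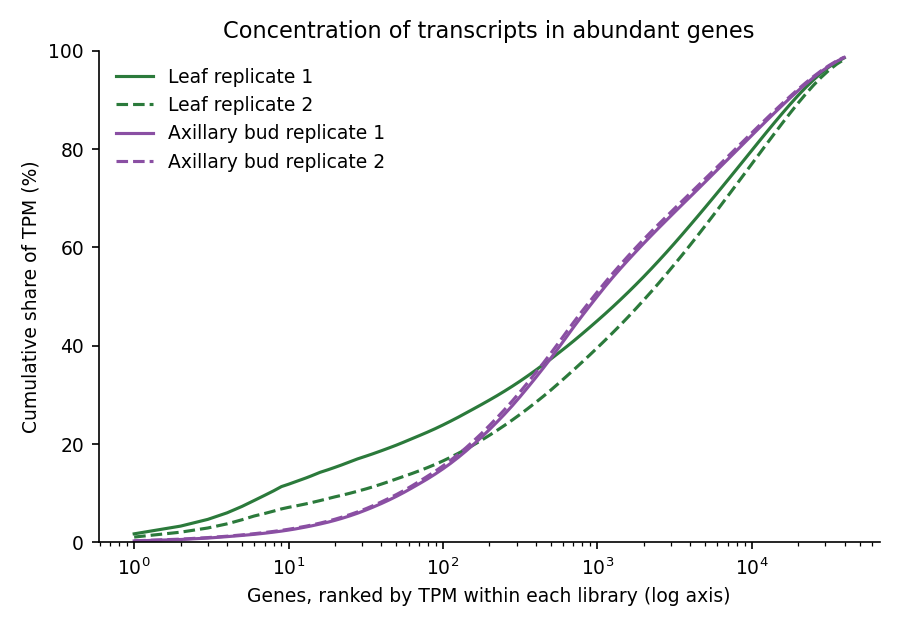
Cumulative share of all TPM (percent) against the number of genes, ranked by TPM within each library on a log axis, for the 4 libraries. The leaf curves start higher, at 11.8% and 7.13% after 10 genes, and lie below the bud curves at 1000 genes, where leaf holds 45.1% and 39.6% and axillary bud 50.0% and 50.9%.

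How exclusive the genes were was read from the leaf's share of the sum of both tissue means, for the 52698 genes with a mean of at least 1 TPM in either tissue. In 21324 of these genes (40.5%) the leaf's share lay between 33.3% and 66.7%. At the extremes, 1925 genes had 99% or more of their signal in leaf and 1298 had 1% or less. After median-of-ratios scaling the extremes held 1315 and 1529 genes of 50028. The genes in the middle class became fewer with level. They made up 44.9% of the 31237 genes whose higher mean lay between 1 and 10 TPM, 35.4% of those from 10 to 100 TPM, 23.0% of those from 100 to 1000 TPM and 5.19% of the 135 genes at 1000 TPM or more. The extremes did not follow one direction: genes at 99% or more leaf were 4.37%, 2.41%, 3.71% and 12.6% of these bands, and genes at 1% or less leaf 2.56%, 1.59%, 7.52% and 23.0%. Among these 135 most abundant genes, 45 had the higher mean in leaf and 90 in axillary bud.

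**Figure D3:**
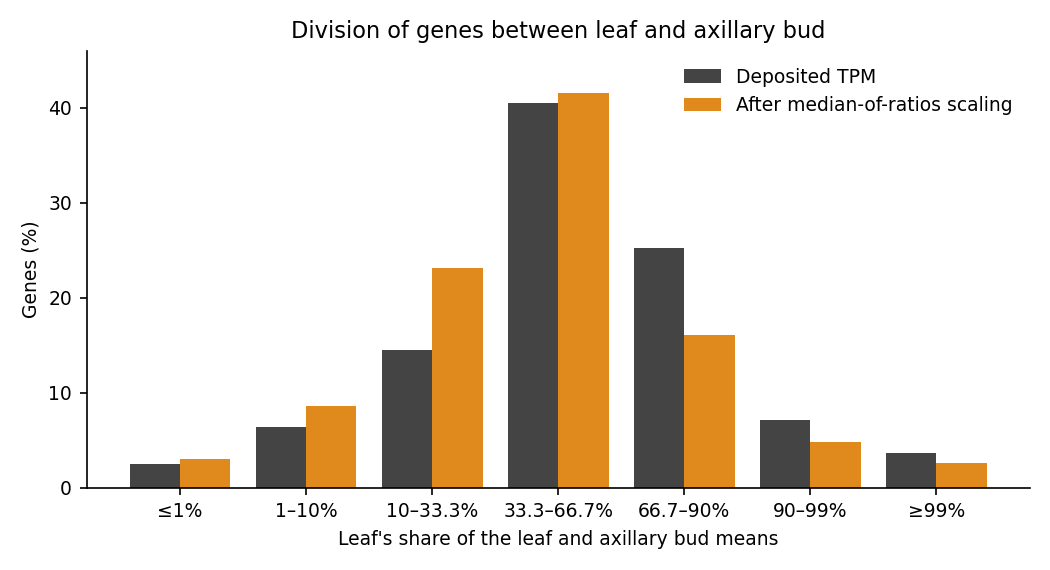
Percent of genes (vertical axis) by the leaf's share of the leaf and axillary bud means (horizontal axis), for deposited TPM (n = 52698) and after median-of-ratios scaling (n = 50028). The middle class holds 40.5% and 41.6%, and scaling moves genes from the leaf side to the bud side.

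A stricter set of marks was defined by level. A gene was called leaf-restricted when it had at least 10 TPM in both leaf libraries and at most 0.1 TPM in both bud libraries, and bud-restricted when the levels were the other way round. These levels chose the genes, so the contrast between the tissues is a description of them and no test is given. There were 236 leaf-restricted and 85 bud-restricted genes, of which 127 and 70 were listed at 0 in both libraries of the other tissue. These counts are for the deposited scale. After median-of-ratios scaling the same rule gave 121 leaf-restricted and 106 bud-restricted genes, so the excess in leaf depended on the scale. Just outside the rule, with more than 0.1 and up to 0.5 TPM in the other tissue, lay another 263 leaf and 196 bud genes. Leaving out a library removes a condition of the rule, so these counts could only stay or rise. There were 247 bud-restricted genes without leaf replicate 2 and 142 without axillary bud replicate 1. Without leaf replicate 2, there were 370 leaf-restricted genes.

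Leaf-restricted genes had mean levels from 10.3 to 870 TPM in leaf, with a median of 22.0 TPM, and 15 of them reached 100 TPM in both libraries. The highest was TraesCS3B02G259300, at 1216 and 523 TPM in leaf and 0.0203 and 0.00833 TPM in axillary bud. It was followed by TraesCS4A02G177600 with 1203 and 531 TPM in leaf against 0.0651 and 0.0178 TPM in axillary bud. TraesCS3A02G230000 had 901 and 397 TPM in leaf and 0.0931 and 0.0508 TPM in axillary bud. These 3 genes show the same split between the leaf libraries, with replicate 1 more than 2 times above replicate 2.

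TraesCS4B02G140200 stood at 702 and 325 TPM in leaf and at 0.0210 and 0.0430 TPM in axillary bud. TraesCS7D02G228100 (511 and 195 TPM in leaf) and TraesCS4D02G134900 (297 and 143 TPM in leaf) were listed at 0 in both bud libraries. TraesCS5A02G363200 had 270 and 149 TPM in leaf and 0.0351 and 0 TPM in axillary bud. Of the 8 highest leaf-restricted genes, the leaf libraries were closest in TraesCS6D02G358900, with 248 and 229 TPM in leaf and 0.0658 and 0.0539 TPM in axillary bud. Across all 236 genes, leaf replicate 1 exceeded leaf replicate 2 in 204, by a median ratio of 1.52.

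Bud-restricted genes ran from 10.5 to 198 TPM in axillary bud with a median of 21.1 TPM, so they did not reach the levels of the first leaf-restricted genes. The 8 highest were all listed at 0 in both leaf libraries. TraesCS1B02G042200 led with 247 and 149 TPM in axillary bud. TraesCS2A02G461300 (169 and 88.2 TPM), TraesCS2B02G483000 (132 and 70.5 TPM) and TraesCS2B02G483100 (120 and 48.4 TPM) showed the same division, with bud replicate 1 well above bud replicate 2. The other 4 were even between the bud libraries: TraesCS7A02G103800 had 125 and 117 TPM, TraesCS6A02G061300 had 103 and 113 TPM, TraesCS3B02G393400 had 86.6 and 78.8 TPM, and TraesCS7D02G118200 had 82.2 and 87.5 TPM. Over the 85 genes, bud replicate 1 was the higher in 39.

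The shoot apex libraries played no part in the choice. Of the 85 bud-restricted genes, 84 had at least 1 TPM in both shoot apex libraries and 72 at least 10 TPM, where 69.5% and 17.0% of all tested genes did. None of the 85 was at or below 0.1 TPM in both apex libraries (0 genes), so the bud-restricted genes mark axillary bud against leaf but not against the shoot apex. The one gene below 1 TPM in the apex was TraesCS6A02G103300, singled out after its values were seen, at 21.0 and 10.1 TPM in axillary bud and 0.200 and 0.527 TPM in shoot apex. By contrast, 145 of the 236 leaf-restricted genes were at or below 0.1 TPM in both apex libraries, as were 5.57% of all tested genes. Of the 236, 14 had at least 1 TPM in both. At least 10 TPM in the apex was reached by 2 of them, TraesCS3D02G141100 (17.3 and 20.5 TPM) and TraesCS6B02G332700 (20.9 and 29.7 TPM), also named after their values were seen.

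The same contrast was then tested in the 4 vernalized libraries of leaf and axillary bud, which had not been used to choose the genes. In limma, 164 of the 236 leaf-restricted genes were higher in vernalized leaf than in vernalized axillary bud, against 14.6% of all tested genes, and 5 were lower. Of the 85 bud-restricted genes 77 were higher in vernalized axillary bud, where 49.7% of all tested genes were, and 0 were lower. Median differences, vernalized leaf minus vernalized axillary bud, were 2.43 and -4.42 for the 2 sets, compared with -1.0 for all tested genes. After scaling the counts were 180 (background 24.8%) and 71 (background 28.9%). In both vernalized leaf libraries 87 of the 236 leaf-restricted genes had at least 10 TPM, as did 12.4% of all tested genes, and 22 were at or below 0.1 TPM, as were 12.3% of all tested genes. Of the 85 bud-restricted genes, 45 were at or below 0.1 TPM in both vernalized leaf libraries. At least 1 TPM was reached there by 20 and at least 10 TPM by 4, beside 55.7% and 12.4% of all tested genes.

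At or below 0.1 TPM in all 10 other libraries, vernalized leaf included, were 15 of the leaf-restricted genes. The highest of these, taken after seeing the values, was TraesCS4A02G333500 with 113 and 94.4 TPM in leaf and 0 in the other 10 libraries. Its homoeologue TraesCS5D02G538600 had 132 and 116 TPM in leaf and 0.352 and 0.0384 TPM in axillary bud, and was at or below 0.3 TPM in the vernalized libraries. The B copy, TraesCS5B02G552100, reached only 2.10 and 4.12 TPM in leaf. TraesCS2D02G033700 was uneven between the leaf libraries, at 49.6 and 136 TPM, with replicate 2 the higher.

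**Figure D4:**
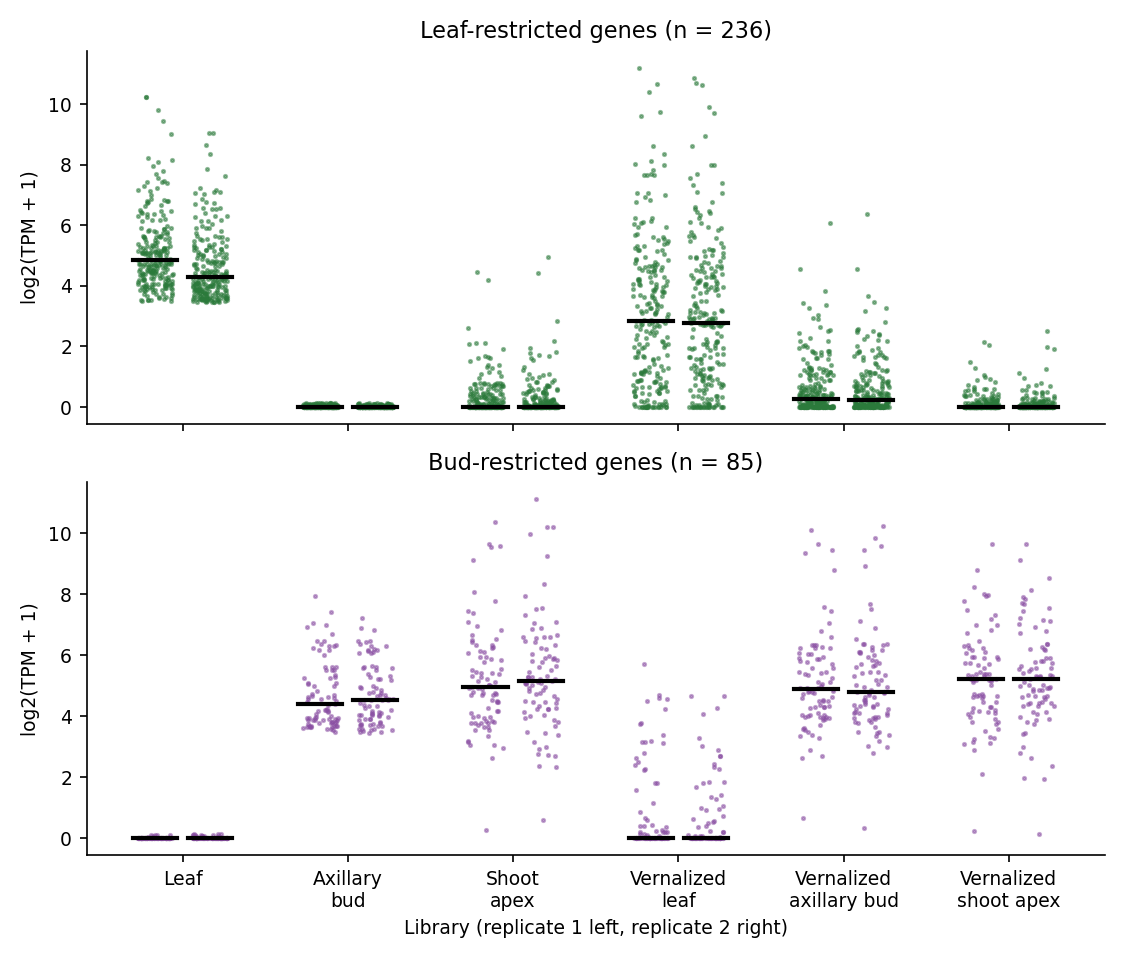
Levels as log2(TPM + 1) of the 236 leaf-restricted genes (top) and the 85 bud-restricted genes (bottom) in each of the 12 libraries, with 1 point per gene and a bar at the median. The leaf-restricted genes are low in axillary bud and apex and spread widely in vernalized leaf, whereas 84 of the 85 bud-restricted genes have 1 TPM or more in shoot apex, where the median of their means is 30.9 TPM.

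The largest differences outside the genes named so far were chosen by the size of the difference itself and are given as values. In leaf they were TraesCS2B02G078900 (2644 and 1238 TPM in leaf, 1.43 and 0.680 TPM in axillary bud), TraesCS2A02G066900 (2102 and 990 TPM against 1.52 and 0.102 TPM), TraesCS2A02G066800 (4249 and 2122 TPM against 6.78 and 1.93 TPM) and TraesCS3D02G223300 (1015 and 431 TPM against 0.145 and 0.0339 TPM). For axillary bud, TraesCS3B02G376700 had 2119 and 2067 TPM, compared with 0.886 and 5.69 TPM in leaf. TraesCS1D02G034800 had 2198 and 1588 TPM in axillary bud and 1.70 and 3.18 TPM in leaf. TraesCS5A02G353600 (1142 and 1037 TPM in axillary bud, 0.539 and 3.36 TPM in leaf) and TraesCS6D02G385500 (785 and 787 TPM in axillary bud, 0.526 and 1.64 TPM in leaf) completed the list. In all 4 bud genes the residual level in leaf was higher in leaf replicate 2.

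Some of these genes were neighbours. On chromosome 2A, 7 genes in a row from TraesCS2A02G066700 to TraesCS2A02G067300 were more than 10-fold higher in leaf, as were 6 from TraesCS2B02G078900 on 2B and 4 from TraesCS2D02G065100 on 2D. These runs were picked after their lengths were seen. Their 17 genes took 4.43% and 2.31% of all TPM in leaf and 0.0227% and 0.0112% in axillary bud, and their highest value in the 4 shoot apex libraries was 1.75 TPM. The first of the 2A run, TraesCS2A02G066700, had 4681 and 2300 TPM in leaf and 12.6 and 4.11 TPM in axillary bud, and the 2D run opened with TraesCS2D02G065100 at 4776 and 2418 TPM in leaf and 27.4 and 15.4 TPM in axillary bud. In all 17, leaf replicate 1 was above leaf replicate 2. Copies that lie side by side can be nearly identical, so the split of TPM within a run is uncertain.

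Runs among the bud genes were more numerous, which was not tested. Runs of at least 4 genes that were more than 10-fold higher in axillary bud numbered 15, compared with 4 in leaf, from sets of 1519 and 1464 genes, and after scaling the numbers were 16 and 4. Runs of 5 genes or more numbered 8, with 44 genes in all, and took 2.37% and 2.41% of TPM in axillary bud and 0.0232% and 0.0762% in leaf. The longest was of 7 genes from TraesCS6D02G040200 (1493 and 1451 TPM in axillary bud, 31.9 and 112 TPM in leaf), and the 6B chromosome held a run of 6 from TraesCS6B02G049000 (561 and 586 TPM in axillary bud, 2.86 and 12.9 TPM in leaf). All 44 genes had at least 10 TPM in each of the 8 libraries of axillary bud and shoot apex. Leaf replicate 2 was above leaf replicate 1 in 42 of the 44, and 43 were below 1 TPM in both vernalized leaf libraries.

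Runs of 3 restricted genes numbered 2 among the 236 of leaf and 0 among the 85 of axillary bud, a difference that was not tested. From TraesCS3D02G438600 to TraesCS3D02G438800, the levels in leaf were 31.7 and 32.3 TPM, 22.0 and 18.7 TPM, and 25.5 and 20.2 TPM, and no bud value was above 0.0522 TPM. From TraesCS6D02G367200 to TraesCS6D02G367400 they were 55.6 and 35.8 TPM, 33.2 and 24.2 TPM, and 98.7 and 65.2 TPM, and no bud value was above 0.0596 TPM. The bud-restricted genes had 3 neighbouring pairs. TraesCS2A02G461200 (87.9 and 48.2 TPM) and TraesCS2A02G461300 lay side by side on 2A, and TraesCS2B02G483000 and TraesCS2B02G483100 did so on 2B.

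The subgenomes took nearly equal parts. Higher expression in leaf was called in 25.7% of the tested genes of the A subgenome, 25.3% of B and 25.9% of D, and higher expression in axillary bud in 15.9%, 16.0% and 16.1%. Between chromosomes the share of leaf calls ranged from 22.4% on 1B to 27.5% on 3B. Restricted genes were spread less evenly, with 62, 70 and 94 leaf-restricted and 37, 24 and 20 bud-restricted genes on A, B and D, and these differences were not tested. Chromosome 2D alone had 27 of the leaf-restricted genes, and 5D had 0 of the bud-restricted genes.

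Homoeologues often shared their preference. The triad list at hand held 1998 triads, each with its A copy on chromosome 4A, and all 3 genes were tested in 1410. In 271 triads all 3 copies were called higher in leaf, in 184 all 3 were called higher in axillary bud, and in 617 none was called. Calls for leaf alone were made in 1 copy in 99 triads and in 2 copies in 110. For axillary bud alone these numbers were 64 and 58. Among the tested genes of the list 25.7% were called for leaf and 16.5% for axillary bud. After scaling, 145 triads were called in full for leaf and 251 for axillary bud. The shares of the tested genes of the list were then 14.6% and 23.0%, so single genes shifted in the same direction. Calls in opposite directions were made in 8 triads on the deposited scale, including that of TraesCS4A02G087100, a copy not tested there, and in 2 after scaling. This count was 4 without leaf replicate 1, 4 without axillary bud replicate 2, and 15 with a pseudocount of 0.1.

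The 2 triads with the widest opposition are given with their values. In the first, the B copy TraesCS5B02G527100 had 47.8 and 26.2 TPM in axillary bud and 0.0750 and 0.897 TPM in leaf, while the D copy TraesCS5D02G526800 had 5.71 and 10.6 TPM in leaf and was listed at 0 in axillary bud. Its A copy, TraesCS4A02G345700, had 0.796 and 0.994 TPM in leaf and 0 in axillary bud. In the second, the A copy TraesCS4A02G190400 was the bud gene, at 133 and 140 TPM in axillary bud and 18.9 and 16.7 TPM in leaf. Its homoeologues were leaf genes, TraesCS4B02G129700 at 54.6 and 40.6 TPM in leaf and 4.52 and 4.21 TPM in axillary bud, and TraesCS4D02G122800 at 15.6 and 14.0 TPM in leaf and 1.66 and 1.37 TPM in axillary bud. These triads were chosen for their opposite calls. The groups did not overlap in any of their 6 genes, and over all tested genes they did not overlap in 47.8% with leaf and 32.8% with axillary bud the higher.

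The SPL genes encode SQUAMOSA promoter-binding protein-like transcription factors, a family found only in plants whose members act in phase change, flowering and shoot branching. Of the 53 SPL genes on the study's list, 46 were tested. On the deposited scale 6 were called higher in leaf and 9 higher in axillary bud, beside backgrounds of 25.7% and 16%. The median log2 difference of the tested SPL genes was -0.23, compared with 0.17 for all tested genes, and after scaling -0.44 compared with -0.14. Scaling removed all leaf calls (0 of 45 tested) and gave 10 bud calls. The backgrounds after scaling were 15.4% for leaf and 21.8% for axillary bud. On the deposited scale, leaf calls numbered 8 in a fit of the 4 leaf and axillary bud libraries alone and 8 with a replicate block. They numbered 8 with adjusted p-values from limma, 4 without a trend, 5 with a pseudocount of 0.1 and 5 with a mean above 5 TPM. Leaving out a single library brought the leaf calls to 2 without leaf replicate 1, 3 without leaf replicate 2, 2 without axillary bud replicate 2 and 4 without axillary bud replicate 1, and the calls of TaSPL6B, TaSPL14B and TaSPL14D were lost in each of these 4 fits.

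The most abundant SPL genes were on the leaf side. TaSPL14B (TraesCS7B02G142200) had 74.4 and 70.8 TPM in leaf and 31.6 and 28.8 TPM in axillary bud. TaSPL14D (TraesCS7D02G248000) was almost the same, with 75.5 and 69.7 TPM in leaf and 31.4 and 28.5 TPM in axillary bud. Their log2 differences were 1.24 (SE 0.40, limma adjusted p = 0.0184) and 1.25 (SE 0.40, limma adjusted p = 0.0188), and 0.63 and 0.64 after scaling. These SE pool the replicates of all groups, and the shoot apex libraries were further apart, at 26.0 and 10.2 TPM for TaSPL14B. The A copy, TaSPL14A (TraesCS7A02G249100), was lower, at 29.1 and 27.6 TPM in leaf and 14.0 and 13.5 TPM in axillary bud, and was not called. The TaSPL6 genes formed a level group below them. TaSPL6B (TraesCS5B02G512800) had 25.9 and 25.9 TPM in leaf and 12.5 and 11.1 TPM in axillary bud, and was the only copy of the 3 to be called, though TaSPL6A (29.2 and 27.9 TPM against 16.5 and 13.1 TPM) and TaSPL6D (28.4 and 26.5 TPM against 13.8 and 11.4 TPM) had similar values.

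Lower in level, TaSPL12B (TraesCS7B02G115200) had the clearest leaf preference, with 1.64 and 1.31 TPM in leaf and 0.134 and 0.142 TPM in axillary bud. Its log2 difference was 1.12 (SE 0.15, limma adjusted p = 4.41e-05) and 0.75 after scaling. TaSPL1A (5.17 and 3.39 TPM in leaf, 1.59 and 1.50 TPM in axillary bud) and TaSPL1D (7.47 and 6.59 TPM in leaf, 3.35 and 2.42 TPM in axillary bud) were also called. TaSPL9A, at 13.5 and 12.1 TPM in leaf and 10.3 and 8.25 TPM in axillary bud, did not differ by the thresholds, and its log2 difference was 0.44 as deposited and -0.12 after scaling.

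The bud side of the family comprised TaSPL7, TaSPL13 and TaSPL10D, with low but clearly separated levels. All 3 copies of TaSPL7 were called: TaSPL7A (TraesCS5A02G265900) had 1.95 and 5.56 TPM in axillary bud and 0.0376 and 0.0977 TPM in leaf, a log2 difference of -2.04 (SE 0.32, limma adjusted p = 0.000155). TaSPL7B had 2.99 and 3.65 TPM in axillary bud and 0.0378 and 0.236 TPM in leaf, and TaSPL7D 2.14 and 4.59 TPM in axillary bud and 0.205 and 0.194 TPM in leaf. The 3 copies of TaSPL13 were called too. TaSPL13A (TraesCS7A02G246500) was the highest, at 5.12 and 5.10 TPM in axillary bud and 0.366 and 0.789 TPM in leaf, followed by TaSPL13D with 3.44 and 3.36 TPM and TaSPL13B with 2.09 and 2.23 TPM in axillary bud. TaSPL10D (3.70 and 3.44 TPM in axillary bud, 0.214 and 0.402 TPM in leaf), TaSPL5D (2.79 and 3.10 TPM against 0.677 and 0.818 TPM) and TaSPL18D1 (2.49 and 2.50 TPM against 0.111 and 0.690 TPM) were the other calls. All 9 were also called after scaling. The 2 bud libraries were uneven for TaSPL7A and TaSPL7D, in which replicate 2 was more than 2 times replicate 1, yet both lay far above the leaf values.

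**Figure D5:**
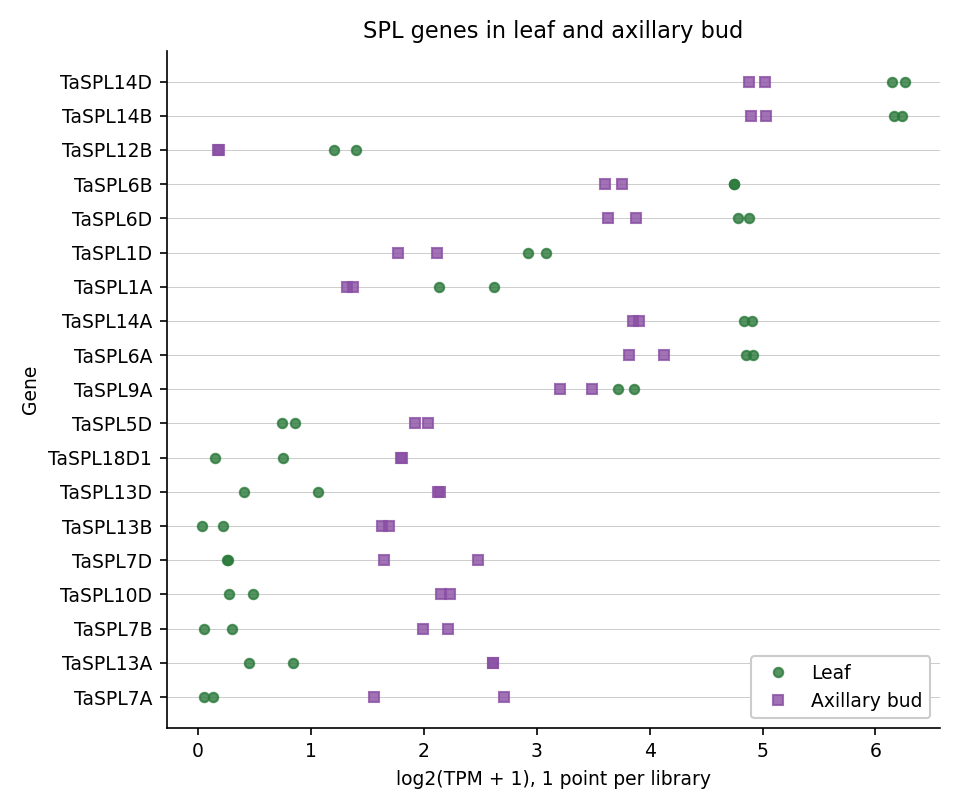
Levels as log2(TPM + 1) of the 19 SPL genes that were called in either direction or had a mean above 10 TPM in either tissue, with circles for the 2 leaf libraries and squares for the 2 axillary bud libraries, ordered by the log2 difference. Circles and squares do not overlap in any of the 19 genes, most of them chosen by their calls (over all tested genes 47.8% do not overlap with leaf and 32.8% with axillary bud the higher), and the genes higher in axillary bud lie at 5.56 TPM or less.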

How the data were processed

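The authors checked read quality with fastp 0.21.0, aligned reads to IWGSC RefSeq v1.0 with hisat2 under default parameters, sorted alignments with SAMtools 1.3.1 and calculated TPM with TPMCalculator. These deposited TPM were the starting point here, and the read counts from featureCounts that entered the authors' DESeq2 analysis were not used here. TPM were fitted as log2(TPM + 1) by limma 3.58.1 in R 4.3.3, with 1 coefficient per group over the 12 libraries, no term for the replicate number and moderation with a trend. Tested genes had a group mean that exceeded 1 TPM, and a log2 difference on this scale understates the change of low genes. Python 3.11.15 with pandas 2.3.3 made the summaries, and the model was tested on simulated data. The thresholds are those of the study, which ran them in another tool.

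The members, lists and rules were chosen with earlier results of these data known. Genes named were the 8 restricted genes of each tissue with the highest mean, the 6 most abundant of each tissue, the 4 largest remaining differences each way with adjusted p under 0.05, SPL genes called or with a mean above 10 TPM in either tissue, the longest runs of at least 3 restricted genes, and the 2 triads with the widest opposite calls. The lists of cell type markers could not be used because identifiers were not paired with names in the sources used here. No 2 libraries were identical (0 pairs). Alternatives were median-of-ratios scaling, a pseudocount of 0.1, no filter, a mean above 5 TPM, a fit of the 4 libraries, a replicate block, no trend, adjusted p-values, other levels for restricted genes, and leaving out each library. Scaling within the 4 libraries alone was added after seeing the data.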

Additional observations from a re-analysis of the deposited data

Results flagged for a closer look

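Of the 16 restricted genes named by level, 9 stood out when their leaf minus axillary bud difference before vernalization was set against that after it. Each value here is the difference before minus that after, on the log2(TPM + 1) scale. The genes were chosen for extreme levels before vernalization, which fixed much of the outcome, so the values are a description with no test. TraesCS6D02G358900 had the largest value, 11.3, since it was at 0.0658 and 0.0539 TPM in axillary bud before and at 22.8 and 22.6 TPM in vernalized axillary bud, with 0.845 and 1.44 TPM in vernalized leaf. The leaf-restricted genes TraesCS4A02G177600 (8.36), TraesCS4B02G140200 (6.2), TraesCS5A02G363200 (4.67), TraesCS7D02G228100 (3.62) and TraesCS4D02G134900 (3.4) were lower in vernalized leaf than in leaf, TraesCS4A02G177600 at 1.42 and 1.52 TPM. TraesCS3B02G259300 (2.48) and TraesCS3A02G230000 (1.87) kept high levels in vernalized leaf, and after median-of-ratios scaling their values were 0.6 and -0.04. The bud-restricted TraesCS1B02G042200 (2.4) was at 1089 and 1216 TPM in vernalized axillary bud. For the other 7 bud-restricted genes named, the values as deposited lay between -0.88 in TraesCS7A02G103800 and 1.07 in TraesCS2B02G483100. After median-of-ratios scaling they lay between -1.87 in TraesCS2B02G483000 and 0.14 in TraesCS2B02G483100.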

How the results depend on the processing

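Under median-of-ratios scaling 9221 genes were higher in leaf, 145 triads were higher in leaf in all copies and 0 SPL genes were higher in leaf. On that scale 121 genes were leaf-restricted and 106 bud-restricted. The median difference of all tested genes turned to -0.14 and that of TaSPL9A to -0.12. Scaling within the 4 libraries alone gave 0 SPL genes higher in leaf and a median of -0.0456. With no filter 3 SPL genes were higher in leaf, and SPL genes higher in axillary bud numbered 16 with a pseudocount of 0.1 and 5 with a mean above 5 TPM. Leaf-restricted genes numbered 498 and 98 with at least 5 and 20 TPM, 127 when listed at 0 in the other tissue, and 499 with up to 0.5 TPM there. For bud-restricted genes these were 196, 41 and 281 (5, 20 and 0.5 TPM). The 10 and 1000 most abundant genes held 9.49% and 42.3% of TPM in leaf and 2.6% and 50.5% in axillary bud.

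Leaving out 1 library at a time gave 14107 to 15283 genes higher in leaf, 7417 to 10545 higher in axillary bud, 2 to 4 SPL genes higher in leaf, 249 to 370 leaf-restricted and 99 to 247 bud-restricted genes. The counts of restricted genes could only stay or rise, since leaving out a library removes a condition of their rule. Whether the replicate numbers pair the libraries is not stated. Replicate deviations in leaf and axillary bud correlated at r = 0.01 across 60326 genes, which cannot decide this with 2 libraries a group. A replicate block gave 15592 and 9603 calls. Of the 67 named genes, all restricted, most abundant and run genes kept their call under every setting in which they were tested. The restricted and run genes were chosen for large differences in these same libraries, so their choice largely fixed this. The calls lost were those of SPL genes. With 2 libraries a group, an outlying library cannot be recognised by a test, and TPM give no limit of detection. The cause of these shifts was not tested.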

Other observations

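The residual levels of bud genes in leaf differed between the leaf libraries. Of the 1519 genes more than 10-fold higher in axillary bud, 1248 were above 0 in both leaf libraries, and 1113 of these (89.2%) were higher in leaf replicate 2, by a median ratio of 2.25. Among all tested genes leaf replicate 1 was the higher in 35.1%, and among genes called in neither direction in 25.2%. The direction was thus not particular to bud genes, but the size differed. On the log2(TPM + 1) scale, the median of leaf replicate 1 minus replicate 2 was -0.17 in genes called in neither direction. It was -0.34 in genes called higher in axillary bud and 0.15 in genes called higher in leaf. In the bud libraries the 1519 genes differed by a median ratio of 1.07, replicate 2 over replicate 1. These genes took 0.530% of TPM in leaf replicate 1 and 1.29% in leaf replicate 2, against 34.3% and 36.3% in axillary bud. Genes more than 10-fold higher in leaf went the other way, with a median ratio of 0.700 in leaf, and took 30.8% and 19.3% of TPM in leaf replicates 1 and 2. The part of this difference in the counts of calls beyond the values without each library was not tested.

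In the group 4 chromosomes, the list of triads places TraesCS4A02G177500 (9124 and 4849 TPM in leaf) with TraesCS4B02G140200 (702 and 325 TPM) and TraesCS4D02G134900 (297 and 143 TPM). The neighbouring identifier TraesCS4A02G177600, which is leaf-restricted, had 1203 and 531 TPM in leaf, closer to the listed B and D copies than TraesCS4A02G177500 is. These genes were compared after their values were seen.

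A triad whose copies all preferred axillary bud comprised TraesCS4A02G269400 (15.7 and 17.5 TPM in axillary bud), TraesCS4B02G044600 (44.9 and 48.7 TPM) and TraesCS4D02G042100 (54.2 and 51.8 TPM). In leaf the A and B copies were listed at 0, and the D copy had 0 and 0.702 TPM. In another triad, the D copy TraesCS4D02G042200 had 24.0 and 22.2 TPM in axillary bud, its B copy TraesCS4B02G218700 had 0.972 and 1.47 TPM, and its A copy TraesCS4A02G085600 was listed at 0 in all 4 libraries.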
